A study of Bos taurus with 30 samples.

Results

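The tissue difference described here is that between caruncular and intercaruncular endometrium of cows pregnant from in vitro fertilisation followed by embryo transfer (IVF-ET). It rests on 8 of the 30 arrays of the series and on 4 of its 15 animals, those labelled IVF-ET whose 2 arrays carry opposite dye orientations. Another IVF-ET animal, replicate 3, has both arrays labelled with caruncle on Cy5. It was left out of the main fits, enters only alternative fits named as such, and is shown beside the results. The other groups are 5 animals pregnant after artificial insemination (AI) and 5 carrying a somatic cell nuclear transfer (SCNT) embryo, and their labels differ from the IVF-ET labels in that entry and in the animal. Day of pregnancy, breed, and sire or cell donor are not given in the sources used here.

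The bovine uterus carries rows of caruncles, gland-free knobs of endometrium to which the placental cotyledons attach, and between them the intercaruncular endometrium, whose glands secrete the histotroph that feeds the conceptus before and during attachment. Both areas are lined by a luminal epithelium over a fibroblast-rich stroma, with vessels, immune cells and, deeper, smooth muscle. A ratio between them therefore moves with the make-up of each piece of tissue as well as with expression in each cell type. In bulk RNA, fewer cells of a type and less RNA per cell cannot be told apart.

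Each array held both areas of 1 animal, so every value is a ratio within that animal. Its sign is given as deposited. The labels do not say which area is the numerator, and no gene list settled it, so genes are called positive or negative by that sign and are not assigned to a tissue. Values were taken as log2, a base the labels do not state, and every fold rests on that reading. Of 27648 spots, between 27574 and 27636 had a value on each of the 8 arrays. Duplicate spots correlated over probes at r between 0.696 and 0.846. The 2 arrays of an animal, in contrast, correlated at 0.300, -0.012, -0.318 and -0.164 in replicates 1, 2, 4 and 5, and animal means at 0.084 to 0.371. Replicate numbers only name animals.

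Whether the tissue ratio departed from 0 was tested with limma over the 4 animals, with Benjamini-Hochberg adjustment over all 13820 probes tested. The ratio passed an adjusted p of 0.05, below termed called, at 106 probes, or 0.767% of those tested. Of these, 58 lay on the positive side (0.42%) and 48 on the negative side (0.347%). The called probes name 78 genes; 26 called probes have no symbol here and 1 has several. The median size of a called ratio was 0.667 and the smallest 0.465, against a median size of 0.088 over all probes tested. An unadjusted p under 0.05 was reached by 1807 probes (13.1%). The count depended on single animals. It was 6 without replicate 1, 7 without replicate 2, 18 without replicate 4 and 81 without replicate 5, and 6, 7, 17 and 57 of the 106 probes stayed called. It was 61 when arrays were scaled to a common spread, and 0 in a fit whose spread was shared with AI and SCNT animals (smallest adjusted p 0.145, and 1100 with an unadjusted p under 0.05).

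The arrays of opposite dye orientation bear on how these values were read. Over all probes, the mean of the 4 arrays with caruncle on Cy5 and the mean of the 4 with intercaruncle on Cy5 correlated at r = 0.0061. The SD over probes was 0.1722 for the tissue ratio and 0.1712 for the part that follows the dyes. With the order of the probes on the array, the dye part correlated at a Spearman rho of -0.5201 and the tissue ratio at 0.1445. The cause was not tested. Called probes stand apart from this bulk, as the choice of probes with a steady ratio makes them do. Of the 106, 84 (79.2%) had all 8 arrays on 1 side, 20 had 7 and 2 had 6 or fewer, against 382 (2.76%) of all probes tested. The ratio of called probes was of like size in both orientations on the negative side, with array medians of -0.66 (caruncle on Cy5) and -0.74 (intercaruncle on Cy5). On the positive side it was 0.55 and 0.85. Read as dye ratios instead, the same values gave 0 calls, with 1662 probes at an unadjusted p under 0.05.

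**Figure D1:**
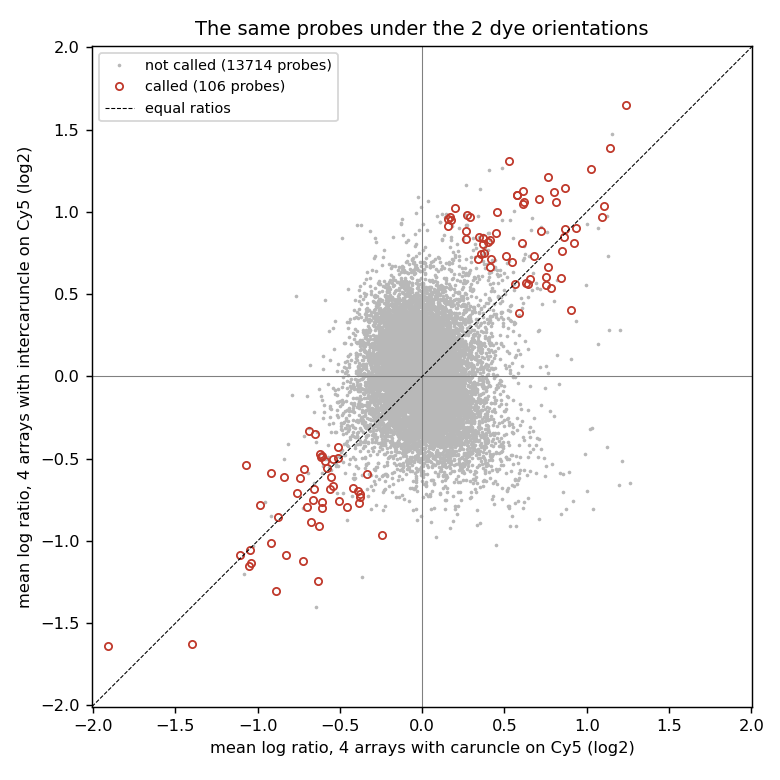
Mean deposited log ratio (log2) of the 4 arrays with caruncle on Cy5 (x axis) against the 4 with intercaruncle on Cy5 (y axis), 1 point a probe, for the 4 IVF-ET animals. The 13714 probes not called form a round cloud with r = 0.0061 over all probes, and the 106 called probes lie in the 2 corners where both orientations have the same sign.

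GJA1, a connexin and the main gap junction protein of uterine stroma and muscle, had the largest ratio of any probe. Its ratio was -1.88, -1.62, -2.06 and -1.53 in replicates 1, 2, 4 and 5, and all 8 arrays lay between -2.24 and -1.25. The animals thus lay close together, far from 0. The mean was -1.77 ± 0.24 (SD, n = 4), a 3.42-fold difference between the areas, with a limma adjusted p of 0.000805. PTN, pleiotrophin, a heparin-binding growth factor, followed on the same side. Its ratios were -1.34, -1.82, -1.66 and -1.23, with a mean of -1.51 ± 0.28 (limma adjusted p = 0.0026). GJA1 and PTN were the 2 of 40 named called genes that stayed called without each of the 4 animals in turn, with adjusted p of at most 0.0317 and 0.0353; 13 of the 40 were called in none of these fits.

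Several genes of secreted and matrix proteins followed on the negative side. SFRP1, a secreted antagonist of WNT ligands, had ratios of -1.47, -1.21, -0.93 and -0.78, below 0 on all 8 arrays (mean -1.10 ± 0.31, limma adjusted p = 0.0135). COL1A2, a chain of type I collagen, was the steadiest of the collagens, at -0.89, -1.06, -0.86 and -0.73 (mean -0.88 ± 0.14, limma adjusted p = 0.0107). COL3A1, which forms fibrils with type I collagen, had -1.31, -1.29, -0.67 and -0.59, with replicates 1 and 2 further from 0 than replicates 4 and 5. COL6A3, a chain of the beaded type VI collagen, had -1.47, -0.78, -0.81 and -0.64. SPON1, the matrix protein spondin, had -1.28, -1.11, -0.75 and -0.62. All 3 passed, with limma adjusted p between 0.019 and 0.0267. Each of these 5 genes lay below 0 in every animal, which the rule for naming them required. All 106 called probes had all 4 animals on 1 side.

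H19, a maternally expressed imprinted RNA, was also called on the negative side, with ratios of -1.58, -0.99, -1.08 and -0.77 and a mean of -1.10 ± 0.34 (limma adjusted p = 0.0176). It was less steady by array: in replicate 2, 1 array gave 0.09 and the other -2.08. FAM13B, a relative of FAM13A, had -1.52, -1.35, -0.88 and -0.63 (limma adjusted p = 0.0203). NTRK2, the receptor of brain-derived neurotrophic factor, was measured by 2 probes and both were called, at -0.75 and -0.70. PPP2R2B, a regulatory subunit of a protein phosphatase, had a mean of -0.78 (limma adjusted p = 0.019). The locus LOC513055 had a mean of -1.05 and was furthest from 0 in replicate 2, at -1.58, and nearest in replicate 1, at -0.49.

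The positive side was led by SLC16A11, a member of the monocarboxylate transporter family. Its ratios were 1.77, 0.49, 1.99 and 1.53, so replicate 2 was lowest and 1 of its arrays lay at -0.01. The mean was 1.44 ± 0.67, a 2.72-fold difference, with a limma adjusted p of 0.0267. CCN2, the matricellular connective tissue growth factor, had 1.68, 0.66, 1.30 and 1.41, above 0 on all 8 arrays (mean 1.26 ± 0.44, limma adjusted p = 0.0184). IL6R, the receptor of interleukin 6, had 1.18, 0.96, 0.59 and 1.56 (mean 1.07 ± 0.40, limma adjusted p = 0.0203). SLC18A2, which loads monoamines into vesicles, had 1.23, 1.54, 0.45 and 0.90 (mean 1.03 ± 0.47, limma adjusted p = 0.0325). In these 4 genes the lowest animal was replicate 2 or replicate 4.

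Further genes on the positive side had smaller ratios. HOXB8, a homeobox transcription factor, had a mean of 0.99. FADS2, a fatty acid desaturase, had 1.31, 0.35, 1.23 and 0.95 (mean 0.96 ± 0.44, limma adjusted p = 0.0352). EZR, ezrin, which ties the apical membrane to actin in epithelial cells, had 0.96, 0.41, 1.24 and 1.07 (mean 0.92 ± 0.36, limma adjusted p = 0.0261). FAM13A had a mean of 0.92, opposite in sign to its relative FAM13B. CLU, the secreted chaperone clusterin, had 1.10, 0.46, 1.21 and 0.76. ALAD, an enzyme of haem synthesis, had a mean of 0.87, and MCOLN2, an endolysosomal cation channel, one of 0.85. LOC613966 had a mean of 0.94. Replicate 2 was the lowest animal for 7 of these 12 positive genes.

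**Figure D2:**
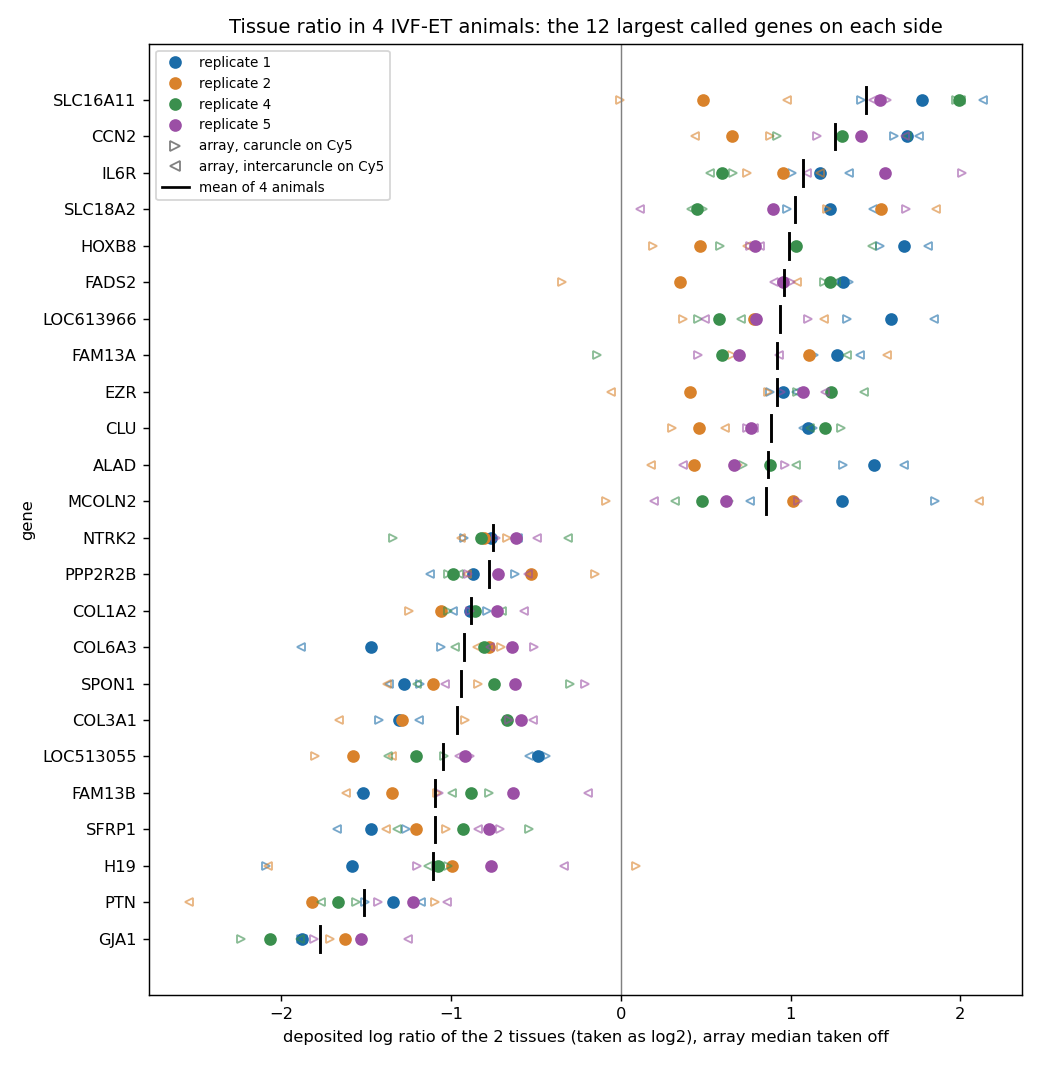
Deposited log ratio (log2) of the 12 called genes with the largest mean on each side in 4 IVF-ET animals: filled circles are animals, open triangles their single arrays by dye orientation, black bars the mean of 4 animals. GJA1 and PTN stand furthest to the left, and the positive genes spread more between animals, with SLC16A11 between 0.49 and 1.99.

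A further 38 called genes fall outside the rule by which genes were chosen for naming; their ratios had sizes between 0.47 and 0.84, and those given here were picked after their values were seen. On the positive side, DDR1, a collagen receptor of epithelial cells, was among the steadiest, at 0.74, 0.56, 0.63 and 0.69 (limma adjusted p = 0.019). NPDC1, a neural differentiation protein, had 0.92, 0.75, 0.71 and 0.96 (limma adjusted p = 0.0126), and PDZK1IP1, an epithelial membrane protein, 0.92, 0.78, 0.67 and 1.00 (limma adjusted p = 0.0132). The animals of both genes lay close together. PPL, an epithelial plaque protein that works with DSP, had a mean of 0.63, PDGFA, a growth factor for stromal cells, one of 0.58, and the transcription factors DLX5 and KLF2 had 0.60 and 0.56. Enzymes of fuel use on this side were PNPLA2, the main triglyceride lipase (0.56), ECI2, of fatty acid oxidation (0.53), and GPT2, an alanine aminotransferase (0.62). On the negative side were the matrix proteins MFAP2, a microfibril component, at -0.73, -0.73, -0.45 and -0.58 (limma adjusted p = 0.0251), and SMOC2, a calcium-binding matrix protein, at -0.76, -0.50, -0.40 and -0.53 (limma adjusted p = 0.0381). LIPG, endothelial lipase, had a mean of -0.56, LMO4, a LIM-domain cofactor, one of -0.54, and MALSU1, a mitochondrial ribosome assembly factor, one of -0.58. PTPRS, a receptor phosphatase, had 1 called probe of 3, at -0.58, with the others at -0.25 and -0.11 on the same side.

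The sizes were not alike in the 4 animals. Among the 58 positive calls the median ratio was 0.85 in replicate 1, 0.57 in replicate 2, 0.60 in replicate 4 and 0.68 in replicate 5. Among the 48 negative calls it was -0.79, -0.67, -0.65 and -0.60 in the same order. Replicate 1 had the ratio furthest from 0 for 32 of the 58 positive and 23 of the 48 negative probes.

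Epithelial genes as a list lay towards the positive side. Of 28 measured luminal and pan-epithelial markers, 26 had a mean above 0, and the median was 0.39, against 0.0009 over all probes tested. In 14 of the 28 all 4 animals were above 0 and in 0 were all 4 below; over all probes tested, 21.9% had all 4 animals on 1 side. The median of the list was 0.51, 0.19, 0.47 and 0.29 in replicates 1, 2, 4 and 5. Called were EZR, the tight junction claudin CLDN3, the apical mucin MUC1 and the desmosomal plaque protein DSP, so 4 rose above 0 and 24 did not pass. The share called on the positive side was 0.42% over all probes tested. This list, like the others below, was chosen with earlier results of these data known, so its counts are not a test. MUC1 had 0.88, 0.58, 0.75 and 0.50 (limma adjusted p = 0.0222), with arrays at 1.15 and -0.16 in replicate 5. CLDN3 had 0.81, 0.49, 1.20 and 0.41 (limma adjusted p = 0.0498), and DSP 0.54, 0.33, 0.79 and 0.54 (limma adjusted p = 0.0439).

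Several defining epithelial markers lay on the same side without passing. The protease ST14 had a mean of 0.87 (limma adjusted p = 0.052), the claudin CLDN7 one of 0.71 (0.0661) and E-cadherin, CDH1, one of 0.51 (0.0772). Keratins were uneven: KRT8 had a mean of 0.56, KRT18 of 0.52 and KRT19 of 0.55, while KRT14, a basal keratin, stood at -0.05. EPCAM was at 0.19 and the tight junction scaffold TJP1 at 0.03. SNAI2, a transcriptional repressor of epithelial junction genes, was called on the other side, at -0.73, -0.75, -0.42 and -0.62 (limma adjusted p = 0.0261).

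Stromal matrix genes were called on the negative side. Of 47 measured, 6 were called there and 0 on the positive side, 36 had a mean below 0, and in 17 all 4 animals were below 0 against 3 with all 4 above. Over all probes tested, 0.347% were called on that side, 11% had all 4 animals below 0 and 10.9% all 4 above. The median was -0.13. Besides COL3A1, SPON1, COL6A3 and COL1A2 these were OLFML3, a secreted olfactomedin, at a mean of -0.74 (limma adjusted p = 0.0203), and SPARCL1, hevin, at -0.57 (limma adjusted p = 0.038). The proteoglycans DCN and LUM had means of -0.50 and -0.49 without passing, and COL1A1, the partner of COL1A2, had -0.41. The list did not lie on 1 side throughout. MGP, an inhibitor of calcification, had a mean of 0.93 (limma adjusted p = 0.0819), S100A4, a fibroblast calcium-binding protein, 0.81 (0.105), and BGN, a proteoglycan related to DCN, 0.51 (0.145). Basement membrane chains COL4A1 and COL4A2 stood at 0.07 and -0.04.

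Genes of the uterine gland list, in contrast, were spread over both sides. This list is mixed and holds more than secreted gland products, among them the receptor PIGR. Of its 23 measured genes, 11 had a mean above 0 and 12 below, with a median of -0.01. PIGR, which carries immunoglobulin across epithelium, was the 1 called member, at 0.67, 0.36, 0.50 and 0.74 (limma adjusted p = 0.038). It was at -0.37 and -0.17 on the arrays of the left-out animal, and was called in no fit that left out 1 animal. SPP1, osteopontin, had -1.94, -1.03, -0.44 and -0.69 (limma adjusted p = 0.0703), and the retinol carrier RBP4 had a mean of 0.42 (limma adjusted p = 0.13). Few genes of the lists for other cell types were called. The share called over all probes tested was 0.767%, so lists of this size give few calls. Their absence does not show that the 2 areas were alike in a cell type. PLVAP, of the diaphragms of fenestrated endothelium, had 0.70, 0.56, 0.50 and 0.44 (limma adjusted p = 0.0325) and was the 1 of 22 endothelial genes called. The left-out animal had -0.14 and -0.41 for PLVAP on its arrays, and the SCNT mean was 0.07. None of 16 smooth muscle genes passed; TAGLN2 had a mean of 0.56 and PLN, whose animals ran from -0.06 to 1.52, one of 0.60. None of 31 leukocyte genes passed, with CORO1A at 0.26 and LCK at 0.24, and none of 5 red cell genes, with CA1 at -0.10 and EPB42 at 0.07.

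Implantation regulators were called on both sides. MSX1, a homeobox factor needed for uterine receptivity, had 0.82, 0.80, 0.68 and 0.56 (mean 0.72 ± 0.12, limma adjusted p = 0.0184). Its arrays in replicate 5 gave 1.23 and -0.11. The other MSX1 probe stood at 0.16 and was not called. On the negative side of this list were GJA1, SNAI2 and FST, follistatin, the binding protein of activin, at -0.61, -0.85, -0.91 and -0.37 (limma adjusted p = 0.0344). These were 4 of 25 measured, and the median was -0.01. Over all probes tested, 0.767% were called on either side. The list was chosen with earlier results of these data known, so setting these shares side by side is not a test. Of 29 genes of the TGF-beta, activin and BMP families, CCN2 and FST were called on opposite sides. Of 25 WNT pathway genes only SFRP1 was called; its relative SFRP2 had a mean of -0.67 (limma adjusted p = 0.076) and the transcription factor TCF7L2 one of -0.43 (limma adjusted p = 0.0561). NR2F1, an orphan nuclear receptor, had -0.37, -0.52, -0.61 and -0.53 (limma adjusted p = 0.038) and was the 1 of 19 steroid signalling genes called. Its relative NR2F2, a stromal mediator of progesterone action, had -0.95, -0.94, 0.05 and -0.27, and did not pass.

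Genes that handle lipids and retinoids gave 3 positive calls of 42. Over all probes tested, 0.42% were called on that side and 0.767% on either side. Besides FADS2 these were SLC22A5, the carnitine importer, at 1.44, 0.51, 0.68 and 0.72 (limma adjusted p = 0.0425), and DHRS3, a retinal reductase, at 0.37, 1.00, 0.60 and 0.52 (limma adjusted p = 0.0474). STRA6, the receptor for retinol-binding protein, lay on the other side at -1.33, -1.04, -0.99 and -0.19 (limma adjusted p = 0.0561). SLC22A5 was also the 1 of 37 solute carriers of that list to be called. Of 34 glycolysis and hypoxia genes, PFKFB3, a regulator of glycolysis, was positive (mean 0.66, limma adjusted p = 0.0457) and ADM, the vasodilator adrenomedullin, negative (mean -0.50, limma adjusted p = 0.0457). CLU was the 1 of 31 complement and coagulation genes called. Among 18 prostaglandin and oxytocin genes none was called; HPGD, the enzyme that inactivates prostaglandins, had 1.76, 0.38, 0.75 and 1.31 (limma adjusted p = 0.0575), and OXTR, the oxytocin receptor, had a mean of 0.34.

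Of 21 imprinted or X-inactivation genes, H19 and XIST, the RNA that silences 1 X chromosome in females, were called on the negative side. XIST had -0.58, -0.37, -0.62 and -0.46 (limma adjusted p = 0.0398). The list's median was -0.15, with 17 of 21 means below 0. Over all probes tested, 6871 of 13820 means were below 0 and 0.347% were called on the negative side. None of 13 IGF axis genes passed; IGFBP1, a binding protein secreted by the uterine lining, ranged from 0.09 to 1.71, and IGF1 had a mean of -0.46. None of 33 adhesion genes passed (ITGA7 0.53, LAMB1 -0.47), none of 37 proteases and inhibitors (MMP2 -0.39, SERPINE2 0.36), none of 41 cell cycle genes (MCM5 0.46, CCND3 0.43) and none of 36 chaperones (HSPB8 0.40, HYOU1 -0.37), with limma. With 0.767% of all probes tested called on either side, lists of this size give few calls. At an unadjusted p under 0.05, the count over all probes tested was 1807.

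**Figure D3:**
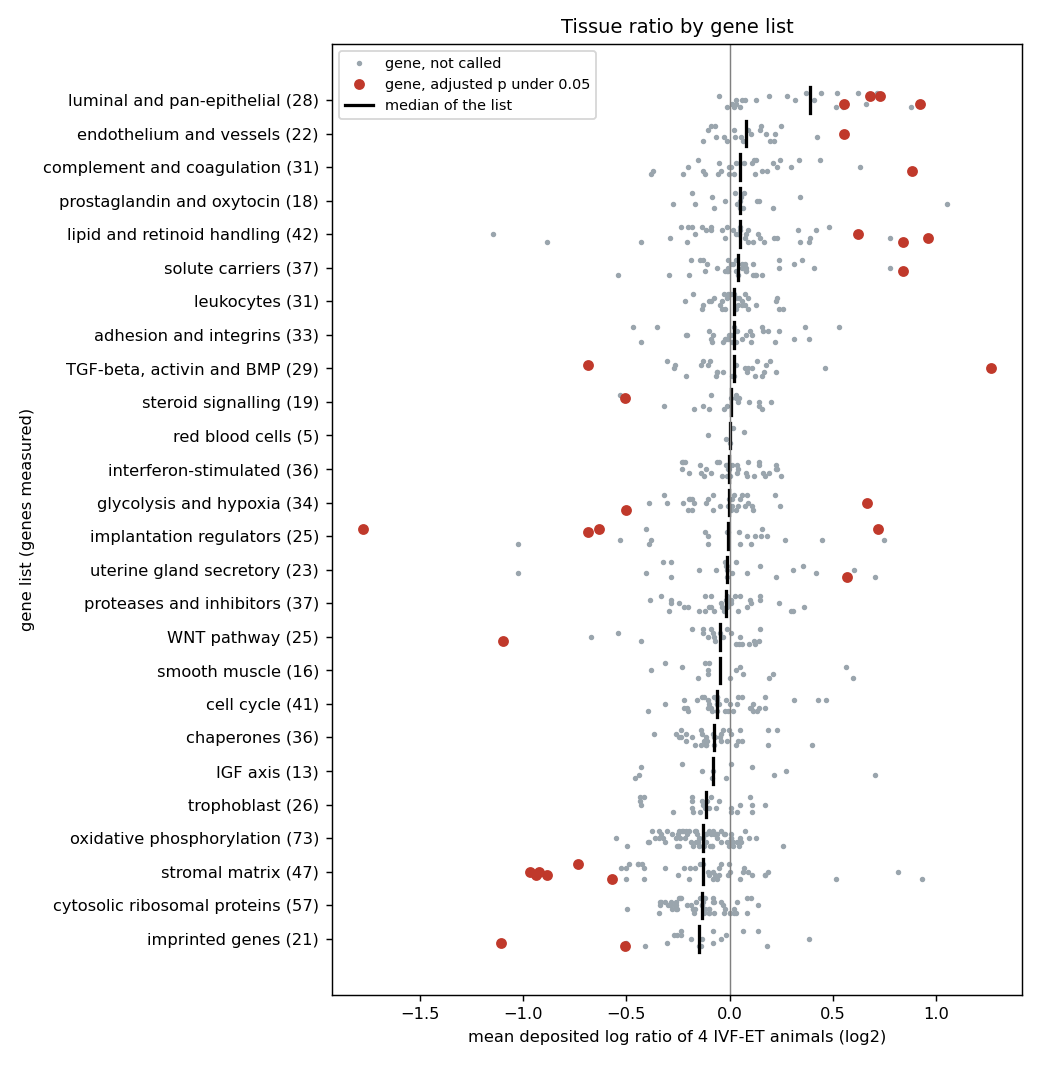
Mean deposited log ratio (log2) of 4 IVF-ET animals for the measured genes of 26 lists, ordered by the list's median (black bar); red circles are genes with a limma adjusted p under 0.05. The epithelial list has the highest median, 0.39, and the 6 called stromal matrix genes all lie on the negative side.

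How far the 4 animals differed from each other was tested with a limma F test over the 8 arrays, with dye orientation as a term. Of 13789 probes, 0 passed (smallest adjusted p 0.117) and 354 had an unadjusted p under 0.05. The gene with the smallest p was FABP3, a fatty acid binding protein. Its ratio was -2.61, -1.48, -0.56 and 0.07 in replicates 1, 2, 4 and 5, while the 2 arrays of each animal differed by far less. PLET1, a placenta-expressed epithelial protein, had -1.76, -1.60, -0.56 and -0.20 in the same order. S100G, the calcium carrier calbindin, ran the other way at 1.77, 0.82, 0.47 and 0.06, though its other probe had a mean of -0.09. Replicate 1 was the animal furthest from 0 in these genes and replicate 5 the nearest.

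Other genes with small p in this test split the animals differently. IGFBP1 was high in replicate 1 (1.71) and replicate 5 (0.90) and near 0 in replicates 2 and 4. SERPINA14, a progesterone-regulated serpin of uterine milk, stood at 1.28 in replicate 5 and at 0.32, -0.54 and -0.48 in replicates 1, 2 and 4. SLC27A6, a fatty acid transporter, was at 1.74 in replicate 1 and between 0.10 and 0.74 elsewhere. GJB2, an epithelial connexin, ran from -1.29 to 0.36, and BCAM, a laminin receptor, from -0.26 to 1.38. None of these 8 genes was called against 0, with limma adjusted p between 0.106 and 0.872.

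**Figure D4:**
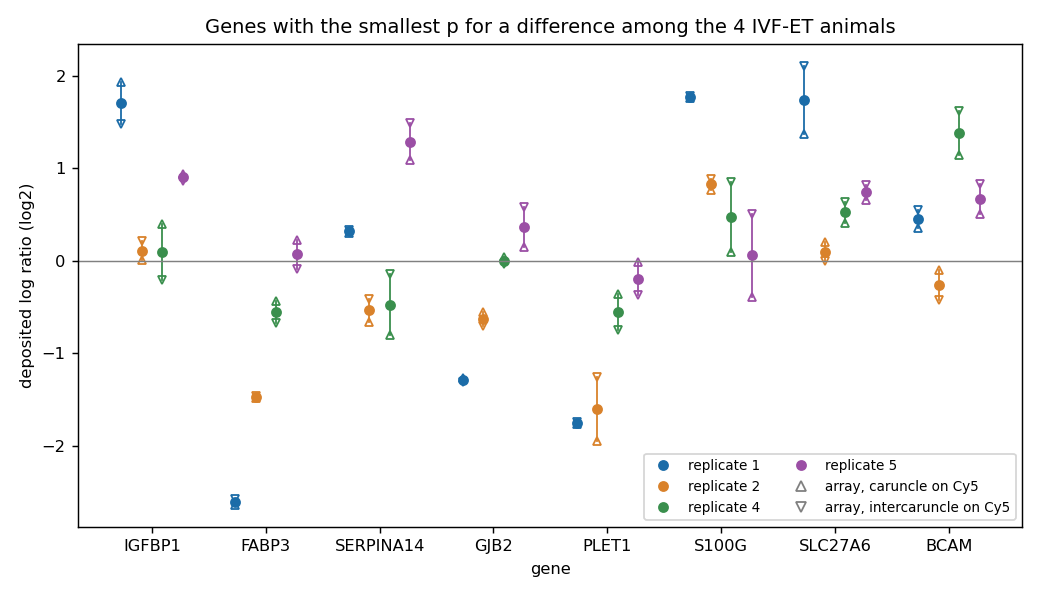
Deposited log ratio (log2) of the 8 genes with the smallest p for a difference among the 4 IVF-ET animals; filled circles are animals, and the triangles joined to them are the animal's 2 arrays. FABP3 runs from -2.61 in replicate 1 to 0.07 in replicate 5, and none of the genes passed after adjustment.

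The left-out IVF-ET animal gave opposite answers on its 2 arrays. Of the 106 called probes, 103 (97.2%) lay on the side of the 4 fitted animals on its second array and 1 (0.943%) on its first; over all probes tested these shares were 54.5% and 38.3%. GJA1 was at 2.71 on the first array and at -2.46 on the second, and CCN2 at -1.96 and 2.02. The labels give both arrays the same dyes, so which array carries the sign of the others cannot be told from them. With this animal kept and its first array turned, 418 probes were called; with its second array turned 0, with 469 at an unadjusted p under 0.05; as deposited, 1.

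In SCNT animals, also pregnant after embryo transfer, the called genes lay mostly on the same side. Their mean was on the IVF-ET side for 105 of the 106 called probes, against 57.1% of all probes tested. In single SCNT animals the count was 104, 106, 102, 104 and 78 of 106, replicate 5 being the lowest. In these animals fitted alone with limma, 73 probes were called (0.528% of 13821). Both groups called 24 probes, or 22.6% of the IVF-ET and 32.9% of the SCNT calls, and all 24 had the same sign. Among them were GJA1, PTN, H19, SFRP1, COL6A3, FST, PPP2R2B and LOC513055 on the negative side, and CCN2, MSX1, ALAD, LOC613966 and PPL on the positive side.

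No probe passed for a difference between the IVF-ET and SCNT ratios. With limma over 4 and 5 animals, 0 of 13820 passed (smallest adjusted p 0.875), and 673 had an unadjusted p under 0.05. GJA1 was at -1.92, -1.48, -1.70, -2.33 and -0.98 in SCNT animals, with a difference of -0.09 ± 0.24 (SE). H19 was further from 0 in SCNT animals, at -2.51, -2.99, -1.34, -2.13 and -3.37, with a difference of 1.36 ± 0.35 (SE) that did not pass (limma adjusted p = 0.875). The 5 genes with the smallest p were PPP3CB, a calcineurin subunit (-0.45), PCP4, a calmodulin regulator (-0.57), MSRB3, a methionine sulfoxide reductase (-0.64; its other probe had an IVF-ET mean of 0.11 against -0.37), SUPT6H, an elongation factor (0.49), and RAB33A, a small GTPase (0.54), each as IVF-ET minus SCNT. PPP3CB had -0.46, -0.55, -0.39 and -0.47 in IVF-ET animals and lay between -0.10 and 0.06 in SCNT animals. By array it was less steady, at -0.04 and -0.74 in IVF-ET replicate 4 and at 0.08 and -1.02 in replicate 5. The left-out animal had 0.54 and -0.02. These p-values do not show the 2 groups to be alike: the SE of a difference was 0.24 for GJA1 and 0.48 for SLC16A11.

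Against AI animals the result turned on the sign of the AI values, which the sources used here do not settle. As deposited, 18 of 13818 probes differed (0.13%), 9 in each direction; with the AI sign turned, 0 did (smallest adjusted p 0.937, and 632 with an unadjusted p under 0.05). The smallest p was that of SNAI2. Its ratio was -0.73, -0.75, -0.42 and -0.62 in IVF-ET animals and between 0.25 and 0.89 in AI animals as deposited, a difference of -1.25 (limma adjusted p = 0.0107), and one of -0.01 with the AI sign turned. COL3A1 differed by -1.50 and COL1A2 by -1.28 (limma adjusted p = 0.017 for both), GJA1 by -2.34 (0.0346) and COL6A3 by -1.61 (0.0243). With the AI sign turned these were -0.43, -0.49, -1.21 and -0.24. On the other side were FAM13A (1.36) and ARHGDIB (1.03), with a limma adjusted p of 0.0236 each, PFKFB3 (1.02, 0.0243), and CCN2 (1.75) and SLC16A11 (2.07), both at 0.044. With the sign turned these 5 were 0.48, 0.10, 0.31, 0.78 and 0.82.

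The AI animals did not agree among themselves. GJA1 was at -0.72, 0.84, 1.43, 1.55 and -0.28 in AI replicates 1 to 5. Of the 106 probes called in IVF-ET animals, 87, 9, 10, 2 and 80 lay on the IVF-ET side in these animals, so 2 AI animals resembled the IVF-ET animals in sign and 3 opposed them. In AI animals fitted alone, limma called 0 probes, with 531 at an unadjusted p under 0.05. The count of 18 was 0 without IVF-ET replicate 1 or 2, 7 without replicate 4 and 5 without replicate 5. It was 133 without AI replicate 1, 1 without replicate 2, 0 without replicate 3 or 4, and 77 without replicate 5.

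**Figure D5:**
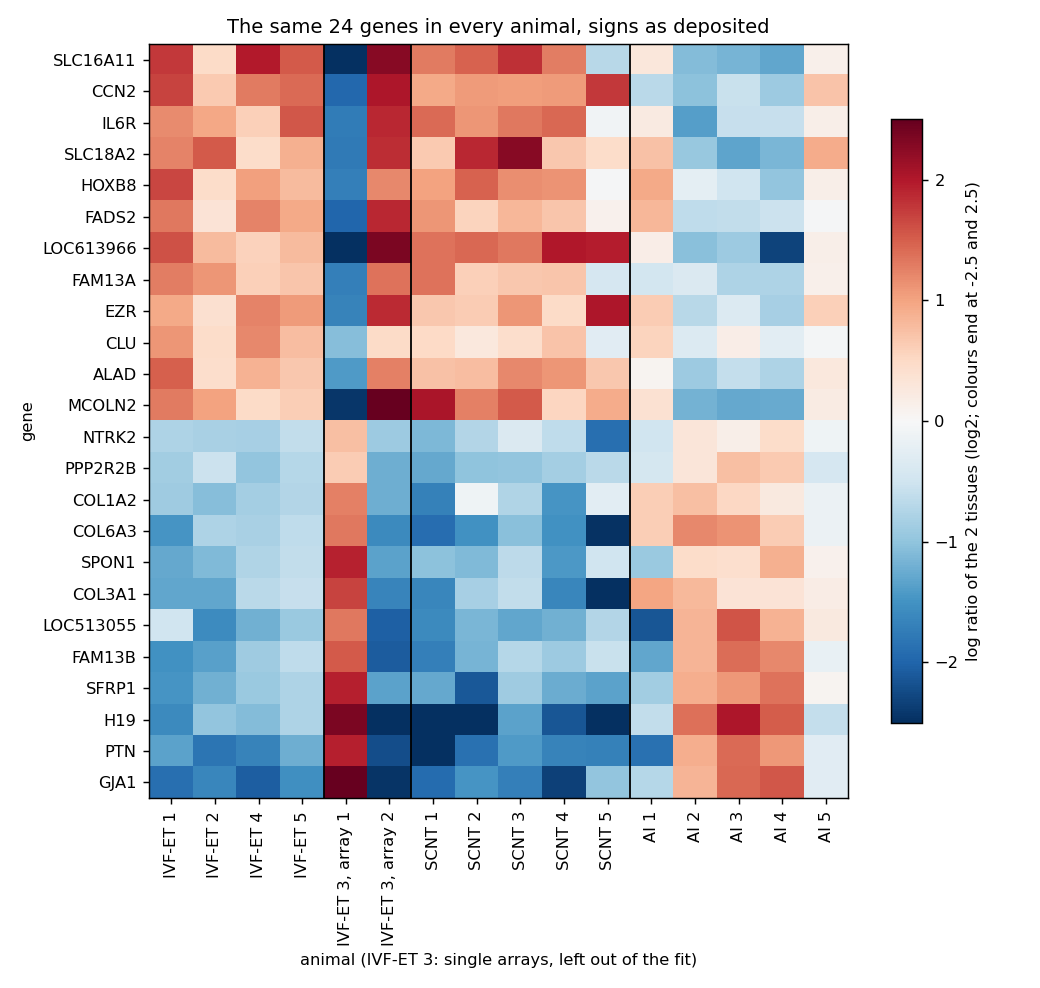
Log ratio of the 2 tissues (log2, signs as deposited; colours end at -2.5 and 2.5) for the 24 genes with the largest called ratios in every animal of the series, with the 2 arrays of the left-out IVF-ET animal shown singly. The left-out animal has opposite colours on its 2 arrays, SCNT animals mostly match the 4 fitted animals, and AI animals 2, 3 and 4 mostly oppose them.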

How the data were processed

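Total RNA of both areas was reverse transcribed with oligo-dT and coupled to Cy3 or Cy5, per the labels' protocols. The authors deposited 1 log ratio per spot, taken here as log2; base, normalisation and channel order are not stated in the labels. Ratios were read as already turned to the tissues, which the labels do not settle; the steady sign of called genes across dye orientations follows in part from their choice under this reading. The 2 spots of a probe were averaged (13824 probes), array medians were taken off, and each animal's value is the mean of its 2 arrays. Symbols came from the platform annotation: 8645 probes had 1, 105 several and 5074 none. limma 3.58.1 in R 4.3.3 (lmFit, eBayes) tested the mean of the 4 animals against 0, two-sided, for probes with a value in at least 3 animals; group differences were fitted on the 2 groups concerned. Its p-values measure the spread between animals, whose number limits the precision. The code of the fit was run on simulated data with known changes. Their noise was not matched to the correlations of the real arrays, so that run does not measure the error of these calls.

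Named were the 12 called genes with the largest ratio on each side, up to 4 called members of each of 26 lists (or the 2 largest ratios where none passed), the 8 with the smallest p between animals and the 5 with the smallest p in each group difference. Other members of a list and other called genes were named after their values were seen. Members and lists were chosen with earlier results of these data known.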

Additional observations from a re-analysis of the deposited data

Results flagged for a closer look

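A single animal stood apart from the other 3 IVF-ET animals in 2 of 105 values examined. Many of these values belong to genes chosen by how the animals agreed or differed, so the count cannot be set against a share given by chance. EPB42, a red cell membrane gene, was at 0.73 in replicate 5 and between -0.18 and -0.13 elsewhere. The median of the lipid and retinoid list was -0.0095 in replicate 1 and between 0.06 and 0.07 in the others.

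Of the called genes, 12 differed between IVF-ET and AI animals as deposited (IVF-ET minus AI, limma), and none passed with the AI sign turned. Over all probes tested, 18 of 13818 differed as deposited (0.13%). The called genes were chosen by their IVF-ET ratios, which also enter this difference, so their number is not separate evidence. As deposited and turned, the difference was 2.07 and 0.82 for SLC16A11, 1.75 and 0.78 for CCN2, 1.36 and 0.48 for FAM13A, 1.03 and 0.10 for ARHGDIB, 1.02 and 0.31 for PFKFB3, and 0.96 and 0.72 for PDZK1IP1. On the negative side it was -2.34 and -1.21 for GJA1, -1.61 and -0.24 for COL6A3, -1.50 and -0.43 for COL3A1, -1.28 and -0.49 for COL1A2, -1.25 and -0.01 for SNAI2, and -0.98 and -0.17 for MALSU1.

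The 2 arrays of the IVF-ET animal left out of the main fits carried the pattern of the fitted animals in opposite signs. Its first array had 1 of the 106 called probes on the side of the fitted animals and its second array 103.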

How the results depend on the processing

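No paired analysis was possible because replicate numbers only name animals, and each ratio is already within an animal. The 106 calls against 0 became 61 with arrays scaled to a common MAD, 279 with arrays as units, a dye term and the animal as a random block, 418, 0 or 1 with replicate 3 kept (first array turned, second array turned, as deposited), and 0 in the shared fit or with values read as dye ratios. Leaving out 1 animal gave 6 to 81. The other alternatives (no median taken off, both arrays required, no filter, discordant spots left out, dye effect of 14 animals taken off, robust eBayes) gave 103 to 113. The 18 differences from AI became 3 with a common MAD, 8 in the shared fit, 42 with the random block, 95, 0 and 1 with replicate 3, 0 as dye ratios and 0 with the AI sign turned; leaving out 1 animal gave 0 to 133. The counts of 0 against SCNT and between animals stayed 0 throughout.

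Read as dye ratios, none of the 40 named called genes passed (smallest limma adjusted p 0.329 over all probes tested). The sign stayed in 14 and was opposite in 26, several of them near 0: SLC16A11 (-0.21), CCN2 (-0.12), HOXB8 (-0.22), FADS2 (-0.16), LOC613966 (-0.12), FAM13A (-0.39), CLU (-0.014), CLDN3 (-0.27), DSP (-0.19), PIGR (-0.40), PLVAP (-0.28), PFKFB3 (-0.21), SLC22A5 (-0.22), DHRS3 (-0.11), ARHGDIB (-0.19), PTN (0.12), H19 (0.051), SFRP1 (0.21), LOC513055 (0.0045), COL3A1 (0.048), SPON1 (0.31), COL6A3 (0.20), PPP2R2B (0.10), FST (0.077), SNAI2 (0.13) and PPP3CB (0.13). The other alternatives turned no named call. Of 7 list medians recomputed, those of the epithelial (-0.05), stromal (0.0006), ribosomal (0.016), trophoblast (0.15) and imprinted (0.0085) lists changed side as dye ratios, and that of the interferon-stimulated list, near 0, under 5 other settings. The epithelial median was 0.11 with replicate 3's second array turned. Causes were not tested. Signal over background is not known here, since only ratios were used.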

Other observations

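Genes of the placenta and of basic cell machinery gave 0 calls with limma in IVF-ET animals, where 0.767% of all probes tested were called. Several lists had most means below 0, against 6871 of all 13820 probes tested. At an unadjusted p under 0.05 were 6 of the trophoblast, 19 of the ribosomal, 23 of the oxidative phosphorylation and 2 of the interferon-stimulated genes; over all probes tested the share was 13.1%. Of 26 trophoblast genes measured, 18 had a mean below 0, with a median of -0.12, and in 9 all 4 animals were below 0 against 0 with all 4 above (11% and 10.9% of all probes tested). Among them, 8 of 10 pregnancy-associated glycoproteins (PAG), secreted by trophoblast cells, were below 0 in all 4 animals, with a median of -0.18. PAG17 was at -0.12, -0.80, -0.28 and -0.55, and PRP4, a prolactin-related protein, at -0.03, -0.95, -0.49 and -0.27. Replicate 2 was furthest from 0 in both, and the exceptions PAG4 and PAG8 were at 0.96 and 0.47 in replicate 5. On arrays with caruncle on Cy5, PAG17 lay between -0.29 and -0.03, and on those with intercaruncle on Cy5 between -1.30 and -0.13. PRP4 lay between -0.885 and 0.08 and between -1.01 and -0.14 in the same order. Read as dye ratios, the median of the trophoblast list changed side. PAG genes form a family of related sequences, so some of their probes may share transcripts.

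Of 57 cytosolic ribosomal proteins, 48 had a mean below 0 (median -0.13), and 21 had all 4 animals there against 0 above. Over all probes tested, 11% had all 4 animals below 0 and 10.9% all 4 above. RPL9 (-0.49) and RPS24 (-0.34) were furthest from 0. Of 73 oxidative phosphorylation genes, 57 were below 0 (median -0.13), led by ATP5F1C (-0.55) and ATP5MC1 (-0.50), subunits of ATP synthase. The 36 interferon-stimulated genes, which respond to the interferon of the conceptus, had a median near 0 in IVF-ET animals (-0.0012), whose sign changed with the setting, with replicates 1 and 2 at 0.08 and 0.09 and replicates 4 and 5 at -0.16 and -0.22. In SCNT animals that median was -0.29, and the difference was not tested. ADAR (0.25) and IFI16 (-0.23) were furthest from 0.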
